A study of Macaca mulatta with 12 samples.

Results

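The account concerns 8 genes of phagocytes and other leukocytes, LYZ, AIF1, TYROBP, CYBB, CD53, ADAMDEC1, EVI2A and TLR1, in the corpus luteum of the rhesus macaque. They were taken as the probe sets annotated to exactly 1 of these symbols, which gave 13 probe sets out of 52707 tested and 8 genes out of 14132. The genes were selected on values of these same arrays: CYBB, ADAMDEC1 and EVI2A stood out in late regressed against mid-late glands, and which values led to the other genes is not recorded. All values of the 8 genes are therefore a description, without a test, and counts of called genes serve only to place them beside the rest of the table.

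The corpus luteum is a short-lived ovarian gland, built from the follicle after ovulation, whose main product is progesterone. The study collected corpora lutea at laparotomy from female macaques with normal menstrual cycles, flash froze them and hybridised total RNA to Affymetrix rhesus arrays, with 1 array per gland. The 4 mid-late glands came from days 10 to 12 after the LH surge and are the study's baseline. The 4 late functional glands came from days 14 to 16 in animals with serum progesterone above 1.5 ng/ml, and the 4 late regressed glands from the same days in animals with serum progesterone below 0.5 ng/ml. No treatment is named for any group, and the sources used here do not give strain or age. Per the labels the late regressed glands had passed functional regression, the stop of progesterone secretion, and the tissue had not begun to degenerate. The regression in question is thus that of secretion.

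Macrophages are phagocytes that enter the corpus luteum from blood monocytes. They are known there for engulfing dying luteal cells and for secreting cytokines and proteases as the gland is broken down. Blood leukocytes share many of their genes, so no single gene of the 8 marks macrophages alone. In whole tissue, a larger number of such cells and more RNA per cell cannot be told apart.

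The 8 genes have different roles. LYZ encodes lysozyme, the secreted enzyme that cuts bacterial cell walls, and ADAMDEC1 encodes a secreted metalloprotease-like protein made by mature macrophages and dendritic cells. TLR1 is a Toll-like receptor that pairs with TLR2 to sense bacterial lipopeptides, and TYROBP (DAP12) is the membrane adaptor that carries signals of receptors such as TREM2. CYBB is the catalytic subunit of the phagocyte NADPH oxidase, which makes superoxide. AIF1 (IBA1) is an actin-bundling protein used as a macrophage stain, CD53 is a tetraspanin of most leukocytes, and EVI2A is a small membrane protein encoded within an intron of NF1.

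Values are RMA log2 values as deposited, so a difference of 1 is a 2-fold difference. Medians of the 12 arrays lay between 4.31 and 4.43. A set of 674 probe sets with the identifier prefix NC and no gene symbol gave a reference for low signal. The 95th percentile of their means was 4.64, called the low-signal level here. The log2 difference between 3′ and 5′ signal of the actin and GAPDH controls, a sign of RNA quality, was 0.66 ± 0.03 (SD, n = 4) in mid-late and 0.59 ± 0.04 in late functional glands, and read 0.70, 2.52, 0.46 and 0.51 on late regressed arrays 1 to 4. The mean of 8 luteal steroid cell genes lay between 10.8 and 11.02 on mid-late arrays and between 10.4 and 10.9 on late functional arrays. It was 10.3, 8.73, 8.69 and 9.95 on late regressed arrays 1 to 4. Late regressed arrays 2 and 3 thus stood apart from arrays 1 and 4, and results that rest on them are also given without them.

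LYZ had its highest mean in the late functional glands and its lowest in the mid-late ones. Mid-late arrays 1 to 4 read 7.30, 8.06, 9.91 and 9.27, late functional arrays 11.22, 11.14, 11.58 and 10.68, and late regressed arrays 9.86, 10.98, 11.27 and 9.19. All late functional arrays lay above all mid-late arrays, while late regressed arrays 1 and 4 fell within the mid-late range. The means of the 3 groups, in that order, were 8.64 ± 1.17, 11.15 ± 0.37 and 10.32 ± 0.97 (SD, n = 4 each). The lysozyme signal was therefore 5.72-fold above mid-late in late functional glands and 3.22-fold above it in late regressed ones. Late regressed glands lay 0.83 below late functional ones on the log2 scale (difference -0.83, SE 0.56), with overlapping ranges.

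TLR1 had the same order of groups as LYZ. Mid-late arrays 1 to 4 read 3.94, 4.65, 5.24 and 4.71, late functional arrays 6.03, 6.23, 6.005 and 5.81, and late regressed arrays 5.30, 5.22, 5.95 and 4.81. Only mid-late array 1 was at or below the low-signal level, and every late functional array lay above every mid-late array. The means were 4.64 ± 0.54, 6.02 ± 0.17 and 5.32 ± 0.47 (SD, n = 4 each). The difference of late functional minus mid-late was 1.38 (SE 0.27), that of late regressed minus mid-late 0.69 (SE 0.27) and that of late regressed minus late functional -0.70 (SE 0.27). TLR1 thus had the smallest late regressed value relative to mid-late among the 8 genes.

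The mean of AIF1 was higher in both late groups than in mid-late glands, and no pair of groups was free of overlap. Its probe set read 5.25, 5.52, 7.12 and 6.06 on mid-late arrays 1 to 4, 7.71, 7.61, 7.64 and 6.92 on late functional arrays, and 7.02, 8.08, 8.80 and 6.46 on late regressed arrays. Mid-late array 3 was above late functional array 4 and above late regressed arrays 1 and 4. Group means were 5.99 ± 0.83, 7.47 ± 0.37 and 7.59 ± 1.05 (SD, n = 4 each), so the late groups differed by 0.12 (SE 0.50) on the log2 scale.

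The adaptor TYROBP read 7.62, 8.21, 9.61 and 8.93 on mid-late arrays 1 to 4, 9.59, 9.45, 9.88 and 9.50 on late functional arrays, and 9.38, 11.41, 11.39 and 9.18 on late regressed arrays. Late regressed arrays 2 and 3 lay above all others, and mid-late array 3 reached the late functional range. The means were 8.59 ± 0.87, 9.60 ± 0.19 and 10.34 ± 1.22 (SD, n = 4 each). Late regressed glands were 1.75 (SE 0.54) above mid-late ones and 0.74 (SE 0.54) above late functional ones.

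CYBB, the oxidase subunit, read 5.72, 5.99, 7.19 and 6.64 on mid-late arrays 1 to 4, 7.996, 7.96, 8.21 and 7.69 on late functional arrays, and 7.33, 10.30, 10.87 and 7.27 on late regressed arrays. Both late groups lay above every mid-late array. Late regressed glands split around the late functional ones, with arrays 2 and 3 above their range and arrays 1 and 4 below it. The means were 6.38 ± 0.66, 7.96 ± 0.21 and 8.94 ± 1.91 (SD, n = 4 each), a late regressed minus mid-late difference of 2.56 (SE 0.73), or 5.89-fold.

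CD53 read 6.02, 6.85, 7.87 and 7.35 on mid-late arrays 1 to 4, 8.17, 7.98, 8.27 and 8.18 on late functional arrays, and 7.75, 9.61, 9.97 and 7.56 on late regressed arrays. The late functional arrays were close together and all above mid-late. The late regressed arrays spread over more than 2 log2 units, 1 pair on each side of the late functional ones. Means were 7.02 ± 0.79, 8.15 ± 0.12 and 8.72 ± 1.25 (SD, n = 4 each), and the late regressed minus mid-late difference was 1.70 (SE 0.53).

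ADAMDEC1 was at or below the low-signal level on all 4 mid-late arrays, which read 3.88, 3.85, 4.13 and 4.00. Late functional arrays 1 to 4 read 6.45, 7.22, 7.34 and 4.07, and late regressed arrays 4.99, 8.18, 8.82 and 6.29. Late functional array 4 alone among the late glands stayed in the mid-late range. The means were 3.97 ± 0.13, 6.27 ± 1.52 and 7.07 ± 1.75 (SD, n = 4 each). Against the low-signal level in place of the mid-late values, ADAMDEC1 was at least 5.38-fold higher in late regressed and at least 3.09-fold higher in late functional glands.

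EVI2A read 4.45, 4.28, 5.43 and 4.69 on mid-late arrays 1 to 4, with 2 of them at or below the low-signal level. Late functional arrays read 5.57, 5.62, 5.88 and 6.80, and late regressed arrays 5.94, 8.51, 8.48 and 7.57. The 3 groups followed one another with only slight overlap: every late array was above every mid-late array, and only late regressed array 1 was below late functional array 4. The means were 4.71 ± 0.51, 5.97 ± 0.57 and 7.63 ± 1.20 (SD, n = 4 each). EVI2A had the largest difference between the late groups among the 8 genes, 1.66 (SE 0.51) on the log2 scale, or 3.16-fold.

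**Figure D1:**
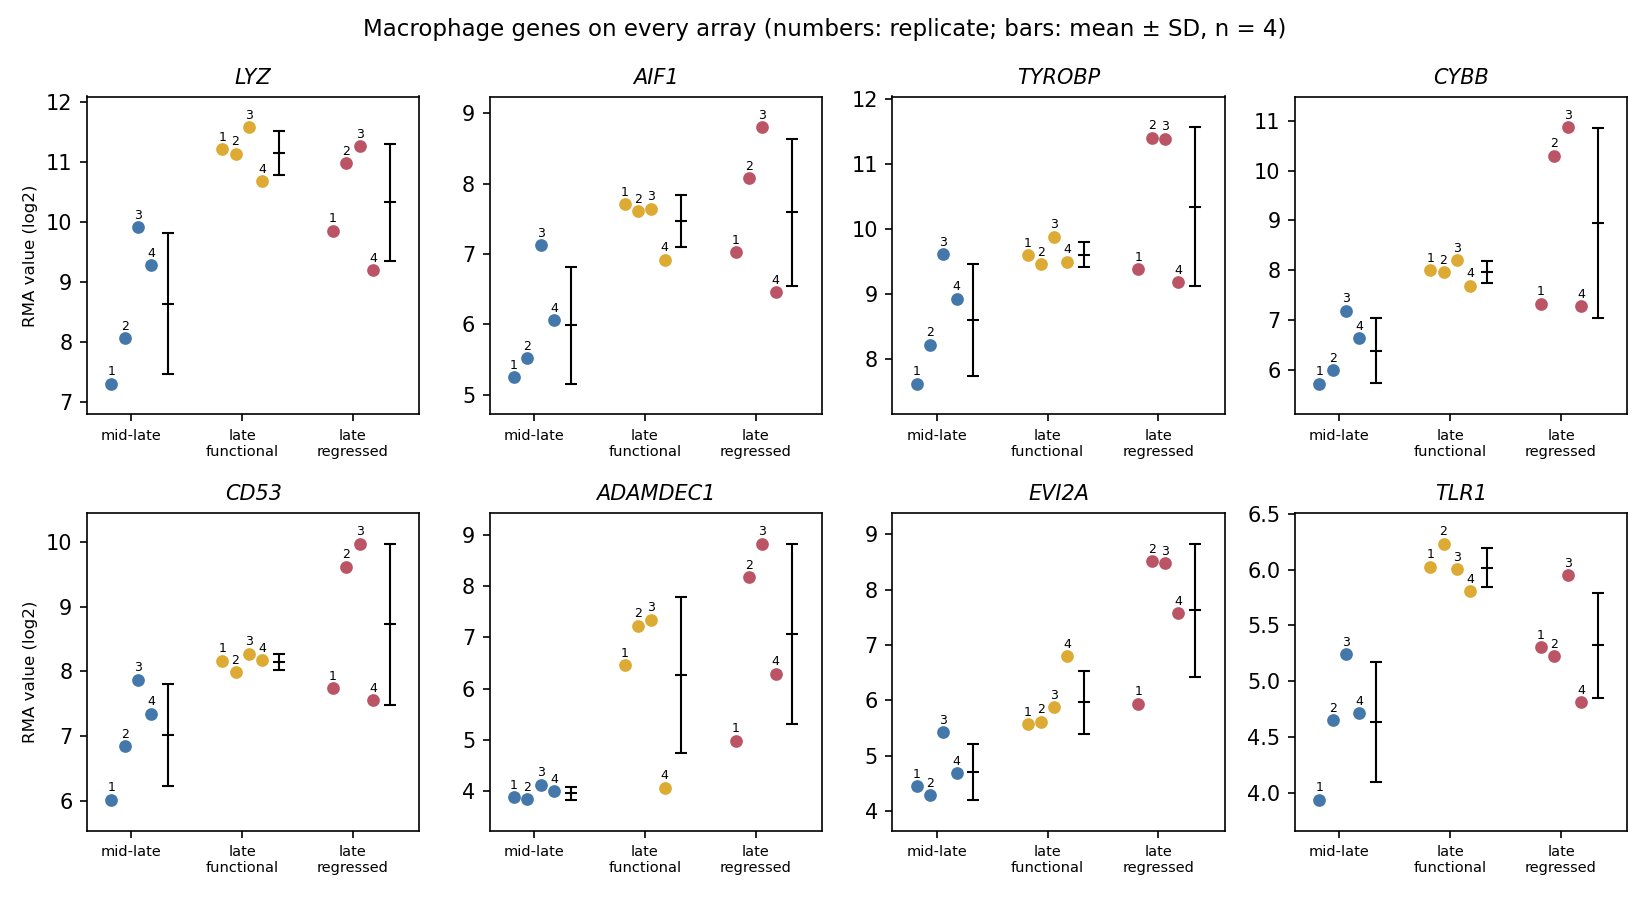
RMA log2 values (vertical axis) of the 8 genes on each of the 12 arrays, in panels by gene, with the groups on the horizontal axis, array numbers beside the points, and bars for the group mean and SD (n = 4). The late functional points sit above most mid-late points in every panel, and late regressed arrays 2 and 3 lie above arrays 1 and 4 for each gene except TLR1, where array 2 is slightly below array 1.

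The 3 genes with more than 1 probe set gave a check on the choice of probe set. CYBB had 2 further probe sets, whose late regressed minus mid-late differences were 2.33 and 2.25, close to the 2.56 of the brightest. These 2 were at or below the low-signal level on 3 and 4 of the 4 mid-late arrays, so their differences rest on low mid-late signal. Their identifiers differ only in the ending, so they are not counted as 2 separate checks. Their late functional minus mid-late differences were 1.24 and 0.78. Neither of these 2 probe sets was called in late regressed against mid-late glands, unlike the brightest. One further CD53 probe set had differences near those of the brightest, with 1.49 in late regressed and 1.06 in late functional glands relative to mid-late, and it was called in late regressed glands where the brightest was not. The count of called members thus depends on the probe set chosen. Another CD53 probe set was at or below the low-signal level on all 12 arrays, with means of 4.20, 4.22 and 4.24. The second AIF1 probe set did not follow the first: its means were 5.81, 5.66 and 5.60 in mid-late, late functional and late regressed glands, a late regressed minus mid-late difference of -0.21. The values for AIF1 thus rest on 1 of its 2 probe sets. A probe set that lists EVI2A with another symbol was left out by the rule.

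Late regressed against mid-late was the comparison closest to how the genes were chosen. The group mean was higher in late regressed glands for all 8 genes, with a median difference of 1.72 (range 0.69 to 3.10), where the median over all 14132 genes was -0.02. limma called 3 of the 8 higher, CYBB, ADAMDEC1 and EVI2A, in a comparison in which 7.6% of all genes were called higher and 5.51% lower at an adjusted p below 0.05. The same 3 genes were those whose 4 late regressed arrays all lay above the 4 mid-late arrays, which held for 10.8% of all genes. Since this contrast chose members, nothing is read from these counts. The number called varied with single arrays, as did the count over the whole table, which was 5282 probe sets with all arrays and 2050 to 7532 without 1 array. Of the 8, it was 1 without mid-late array 1, 2 or 4, without late functional array 1, 2 or 3, or without late regressed array 2 or 3. It was 2 without late functional array 4, 6 without late regressed array 1 and 7 without late regressed array 4. EVI2A was called in all 12 of these fits, ADAMDEC1 and AIF1 in 3 each, and TLR1 in none. Without late regressed arrays 2 and 3 together the median difference was 0.82, with 0 of the 8 called by limma, and all 8 differences were still above 0. Far fewer probe sets of the whole table were called in that fit too.

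Late functional glands, which still secreted progesterone, already carried higher signal of these genes than mid-late glands. All 8 late functional means were above the mid-late means, with a median difference of 1.43 (range 1.01 to 2.52) against -0.01 over all genes. For 5 of the 8, LYZ, CYBB, CD53, EVI2A and TLR1, all 4 late functional arrays lay above all 4 mid-late arrays, beside 10.4% of all genes. limma called 1 of the 8, TLR1, higher, in a comparison that called 0.58% of all genes higher and 0.594% lower, and 5 of the 8 had an unadjusted limma p below 0.05, as did 20.1% of all genes. The TLR1 call was kept in 3 of the 12 fits that left out 1 array, those without late regressed array 2, 3 or 4, and LYZ joined it without late regressed array 2. Both late groups were set against the same 4 mid-late arrays, so the differences are given side by side only and not as support for each other.

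Late regressed against late functional glands compares the same days after the LH surge, and its differences do not use the mid-late values. The median difference of the 8 genes was 0.66, with 6 genes above 0 and LYZ and TLR1 below 0, and the median over all genes was 0.00. limma called 0 of the 8, where 2 of the 8 and 16.1% of all genes had an unadjusted p below 0.05. Over the whole table this comparison called 0.00708% of genes higher and 0% lower. No gene of the 8 had all 4 late regressed arrays above all 4 late functional arrays, which 2.63% of all genes had. Without late regressed array 1, EVI2A was called. Higher signal than in mid-late glands was thus measured in both late groups, the one still secreting progesterone included.

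**Figure D2:**
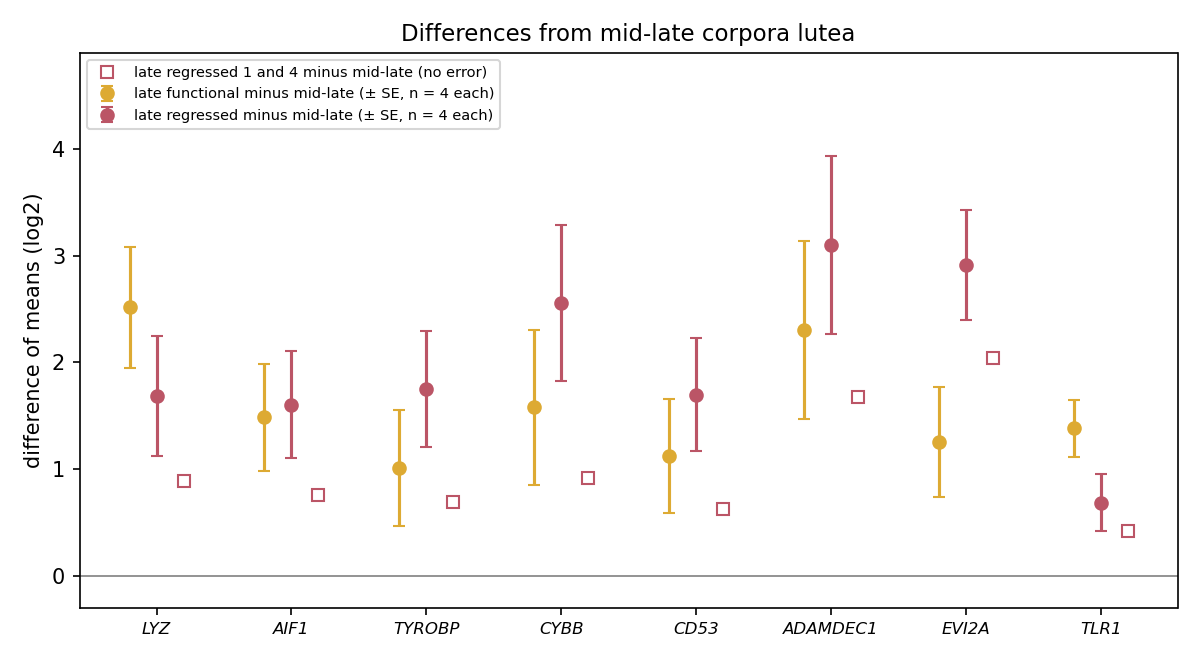
Log2 differences from the mid-late mean (vertical axis) of the 8 genes (horizontal axis) for late functional and late regressed glands (filled points, n = 4 each, bars for the SE of the limma fit) and for late regressed arrays 1 and 4 alone (open squares, no error). The late regressed differences run from 0.69 for TLR1 to 3.10 for ADAMDEC1, and the open squares lie below both filled points for every gene except EVI2A, where the square, 2.05, lies above the late functional point.

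The late regressed glands split into pairs. The mean over the 8 genes was 7.20, 9.04, 9.44 and 7.29 on late regressed arrays 1 to 4, against 7.84, 7.90, 8.10 and 7.45 on the late functional arrays. Arrays 2 and 3 were above the whole late functional range for 6 of the 8 genes each, while array 1 was below that range for 5 and array 4 for 6. Array 3 was the highest late regressed array for 6 genes and array 2 for the other 2. Averaged over arrays 1 and 4, late regressed glands lay below the late functional mean for 7 of the 8 genes, from -0.32 for TYROBP to -1.63 for LYZ, and EVI2A was the exception with 0.79. The same 2 arrays lay above the mid-late mean for all 8 genes, from 0.42 for TLR1 to 2.05 for EVI2A. Without arrays 2 and 3 the median difference of late regressed minus late functional was -0.65 in place of 0.66.

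Arrays 2 and 3 were also the ones with the lowest luteal steroid cell signal, and array 2 the one with the largest 3′ to 5′ difference. Array 3, with a 3′ to 5′ difference of 0.46, below every mid-late value, had the highest mean of the 8 genes. A fit that also included this RNA quality measure gave a median late regressed minus mid-late difference of 1.52, beside 1.72 without it. In this comparison limma called 1 of the 8 genes with the measure and 3 without it. The measure was 2.52 on late regressed array 2 and 0.46 to 0.70 on all other arrays, so that fit mostly adjusts for 1 array. The part of tissue make-up or RNA quality in the member values was not tested.

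**Figure D3:**
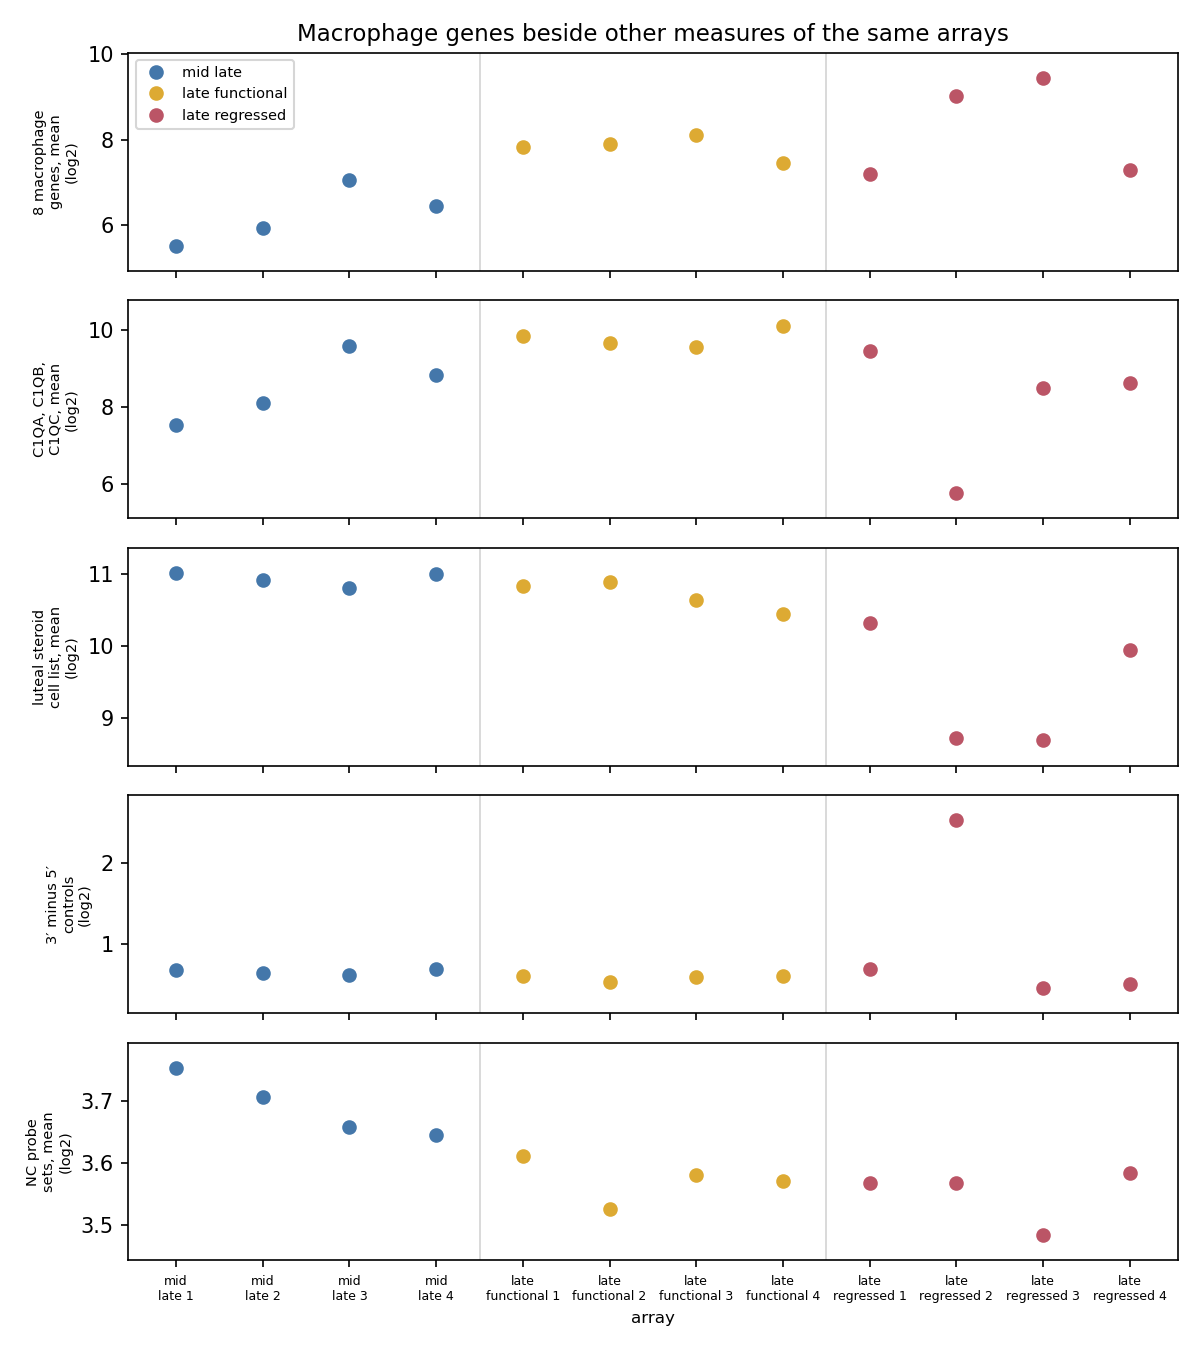
Panels from top to bottom give, on a log2 scale, the mean of the 8 genes, of the 3 C1Q genes and of the luteal steroid cell genes, the 3′ minus 5′ control difference and the mean of the NC probe sets, for each of the 12 arrays (horizontal axis) coloured by group. Late regressed arrays 2 and 3 have the highest member means, 9.04 and 9.44, and the lowest luteal means, 8.73 and 8.69, while the largest 3′ to 5′ difference, 2.52, is that of array 2 alone.

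Mid-late glands also differed among themselves in a shared way. The mean over the 8 genes was 5.52, 5.93, 7.06 and 6.46 on mid-late arrays 1 to 4. Array 3 was the highest mid-late array for 8 of 8 genes and arrays 3 and 4 were the top pair for 8 of 8, while array 1 was lowest for 6 and array 2 for 2. The genes share each array's RNA, so this is 1 pattern of 4 glands and not 8 observations. Over the 8 genes the median SD was 0.72 for mid-late arrays, 0.29 for late functional arrays and 1.21 for late regressed arrays, where the median SD over all genes was 0.14, 0.13 and 0.21. The late regressed to mid-late ratio of the SD had a median of 1.50 over the 8 genes and 1.52 over all genes. The late functional to mid-late ratio was 0.32 for the 8 genes and 0.96 for all genes. EVI2A and ADAMDEC1 had ratios above 1, of 1.13 and 11.8, the latter over a mid-late SD measured at low signal.

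The 8 genes followed one another over the arrays to different degrees. Pearson's r over the 12 arrays ran from 0.38 to 0.99 among the 28 pairs, with a median of 0.83, and over deviations from the group means the median was 0.75. TYROBP, CD53 and CYBB were the closest, with r of 0.97 to 0.99. LYZ and TLR1 paired at 0.94, AIF1 had r of 0.83 to 0.94 with these 5, and EVI2A with TLR1 had the lowest r. Without late regressed arrays 2 and 3 the median was 0.89, and LYZ, TLR1 and CYBB then had r of 0.94 to 0.98 with one another, while EVI2A had at most 0.62 with any other. These values describe glands that share groups, RNA and array, and carry no test.

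**Figure D4:**
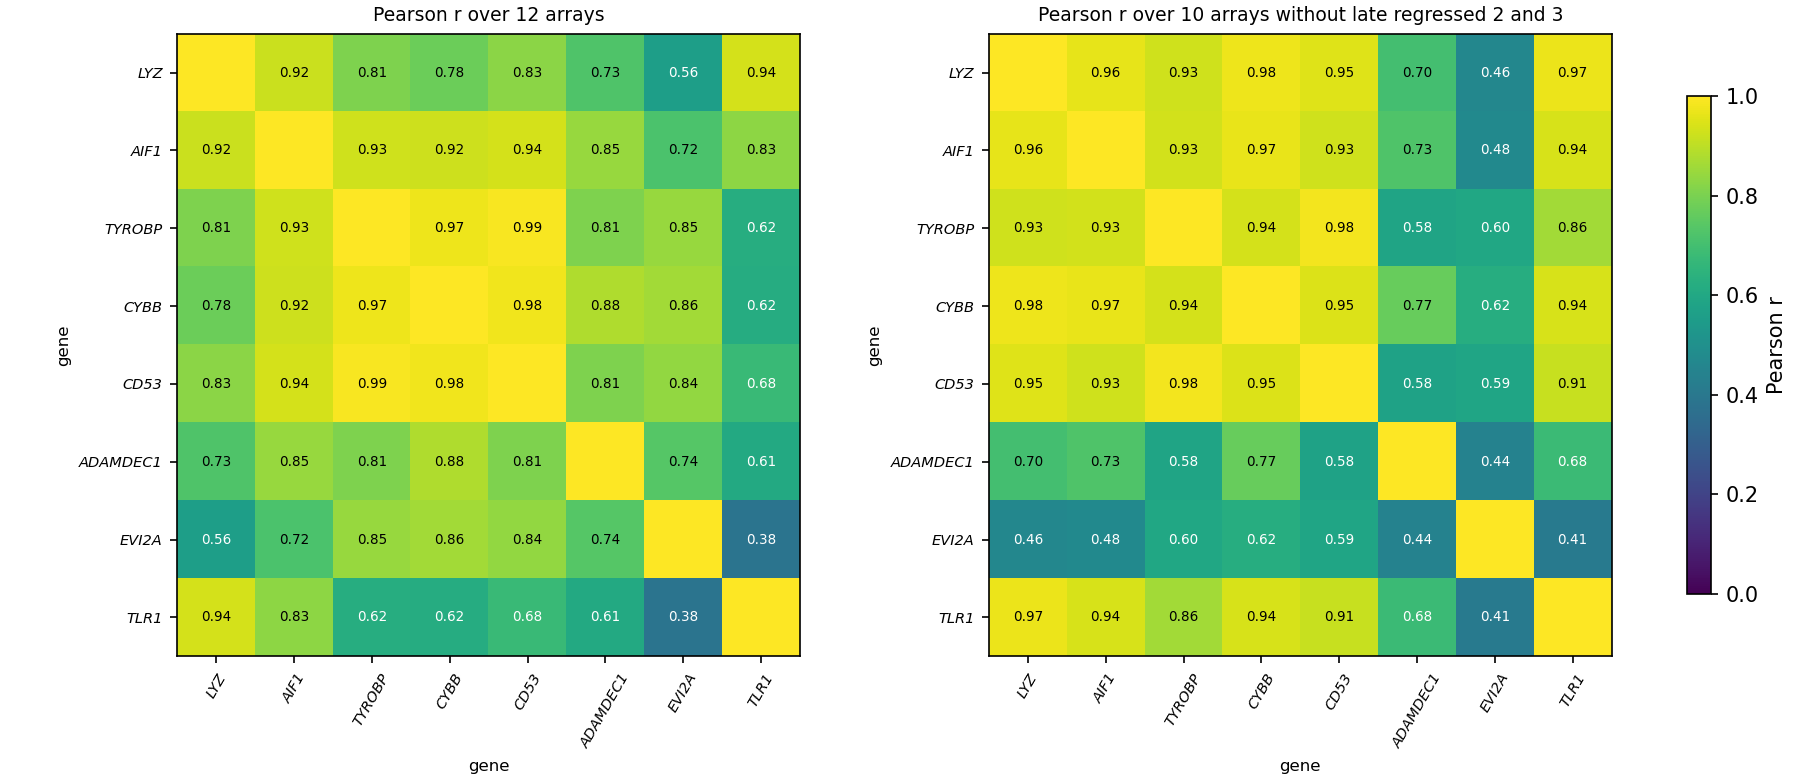
Pearson's r between the 8 genes (rows and columns), over all 12 arrays on the left and over the 10 arrays without late regressed 2 and 3 on the right. The lowest value in each panel is that of EVI2A with TLR1, 0.38 on the left and 0.41 on the right, and TLR1 has r of 0.62 with CYBB over 12 arrays and 0.94 over 10.

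The genes most like the mean of the 8, each standardised over the 12 arrays, were drawn from 12985 other named genes. The first 10 were LCP1, CD48, LPXN, CD14, NCF4, CD68, ADA2, CHFR, SQOR and TNS1, with r of 0.96 to 0.98 over 12 arrays and 0.92 to 0.98 without late regressed arrays 2 and 3. LCP1 (L-plastin, an actin-bundling protein of leukocytes) had means of 7.14 ± 0.75, 8.91 ± 0.25 and 9.67 ± 1.58 (SD, n = 4 each) in the 3 groups in the order used above. CD68, a lysosomal membrane protein of macrophages, had 7.53 ± 0.60, 8.59 ± 0.22 and 9.21 ± 1.25. Among all these candidates 124 had r above 0.9.

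**Figure D5:**
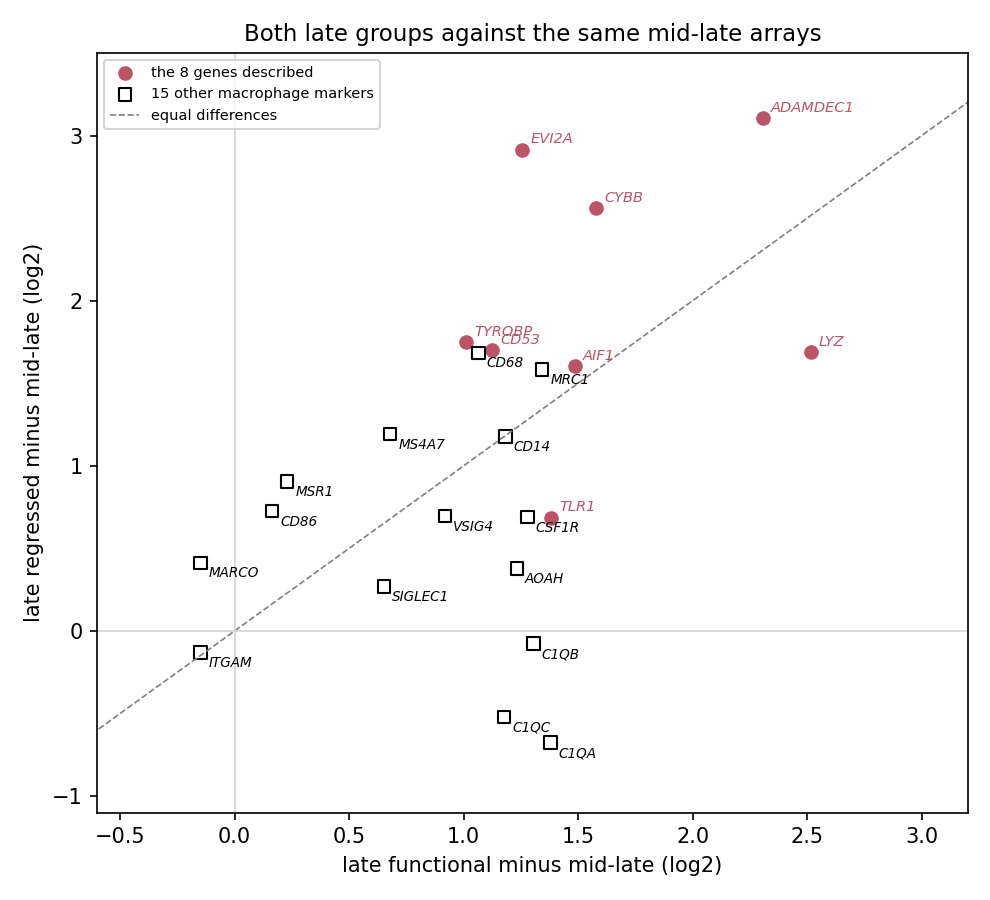
Log2 difference of late functional minus mid-late (horizontal axis) against late regressed minus mid-late (vertical axis) for the 8 genes (filled) and 15 other macrophage markers (open squares). Both axes use the same 4 mid-late arrays, so a joint position away from 0 is built in, and the dashed line marks equal values in both late groups; LYZ and TLR1 lie below it and EVI2A lies farthest above it among the 8.

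The partners of CYBB in the phagocyte NADPH oxidase were measured for 6 of 7 listed genes. limma called 2 of 6 higher in late regressed than in mid-late glands and 0 lower, with a median difference of 0.96. Over all genes this comparison called 7.6% higher and 5.51% lower, and its list counts below are to be read beside these shares. CYBA, the membrane partner of CYBB, rose by 0.68 (SE 0.12, adjusted p = 0.011, limma), and HVCN1, the proton channel that supports the oxidase, rose by 1.25 (SE 0.31, adjusted p = 0.0322, limma). Without late regressed arrays 2 and 3 limma called 0 of the 6, and CYBA had a difference of 0.52 and HVCN1 of 0.53. NCF4, a cytosolic subunit, had a difference of 1.63 that was not called.

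Among Toll-like receptors and their partners, 3 of 14 measured genes were called higher and 1 lower by limma, with a median of 0.19. LY96 (MD-2, the partner of TLR4) rose by 2.00 (SE 0.49, adjusted p = 0.0293, limma), TLR2, the partner receptor of TLR1, rose by 1.37 (SE 0.25, adjusted p = 0.011, limma), and IRAK1, a kinase downstream of these receptors, fell by 0.57. TLR7 was the other gene called higher, with 0.71. TLR2 had late regressed values of 5.98, 6.52, 7.18 and 7.28 on arrays 1 to 4, so its highest value was on array 4, where TLR1 was at its lowest. Without arrays 2 and 3 LY96 was still called, with a smaller difference of 0.84, while TLR2 at 1.26, TLR7 at 0.41 and IRAK1 at -0.48 were not. TLR6 and TLR10, which neighbour TLR1 on the chromosome in RefSeq and resemble it, had mean signals of 3.93 and 3.41, below the low-signal level.

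In the list of ITAM adaptors, receptors and kinases around TYROBP, limma called 2 of 13 higher and 0 lower, with a median of 0.69. LYN, a Src family kinase, rose by 1.05 and CD300A, an inhibitory receptor, by 0.91, and without arrays 2 and 3 limma called 0 of the 13, with 0.38 for LYN and 0.43 for CD300A. HCST (DAP10), the adaptor gene beside TYROBP, had a difference of 0.25 that was not called. Of 14 genes of monocyte recruitment and growth, 1 was called higher, near the 7.6% of all genes called higher. That gene, CCL3, a monocyte chemokine, rose by 3.06 (SE 0.84, adjusted p = 0.0434, limma), with late regressed values of 7.01, 11.16, 11.19 and 7.99. Without arrays 2 and 3 limma called 0 of the 14, and CCL3 had a difference of 1.22.

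Of 9 myeloid transcription factors, 2 were called higher and 0 lower. CEBPA, which drives myeloid differentiation, rose by 2.14 (SE 0.46, adjusted p = 0.0185, limma), and remained called without arrays 2 and 3 with a difference of 1.12 (adjusted p = 0.0288, limma), while KLF4, with 0.95 on all arrays and 0.39 without these, did not. Of 14 engulfment and bridging genes, CD36, a scavenger receptor, rose by 1.92 and PROS1, a bridging protein between phagocytes and dying cells, by 1.22, while ELMO1, which acts in engulfment, fell by 0.86. Without arrays 2 and 3 none of the 3 was called: PROS1 kept a difference of 1.12, CD36 had 0.81 and ELMO1 -0.56. Of 13 leukocyte membrane and cytoskeleton genes, LCP1 and CD48 were called higher and 0 lower, with a list median of 1.11. Without these arrays limma called 0 of the 13, with 1.16 for LCP1 and 0.95 for CD48. EVI2B, the neighbour of EVI2A, had a difference of 1.01 that was not called, and r with EVI2A of 0.74. In the late regressed against late functional comparison limma called 0 genes of all these lists, beside 0.00708% of all genes called higher and 0% lower. Each list had 2 to 5 of its 6 to 14 measured genes at an unadjusted p below 0.05, except the transcription factors with 0 of 9. Over all genes this share was 16.1%.

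The macrophage list itself was measured for 15 of 21 genes. limma called 0 of 15 in late regressed against mid-late glands, with 4 of 15 at an unadjusted p below 0.05, beside 35.8% of all genes, and a median difference of 0.69. That median was 0.33 without late regressed array 3, 0.40 without mid-late array 1, 0.43 without mid-late array 2 and 0.36 without late regressed arrays 2 and 3, and 1 of 15 was called without late regressed array 1 or 4. In late functional against mid-late glands the list median was 1.07, with 13 of 15 genes above 0, where the median over all genes was -0.01. AOAH, an enzyme that inactivates bacterial endotoxin, was the 1 gene called there, higher by 1.23 (adjusted p = 0.0495, limma). Over all genes 0.58% were called higher in this comparison. In late functional against mid-late glands the list had 0 called without any 1 of the mid-late arrays, without late functional array 1, 2 or 3, or without late regressed array 1, 3 or 4. It had 3 called without late regressed arrays 2 and 3 together. Calls over the whole table also rose in that last fit, so the rise is not read as a result about this list. CD68, CD14 and MRC1 had the highest r of the list with the mean of the 8 members, 0.92 to 0.97. Of the 15 genes, 5 had r above 0.8 and 4 below 0.2. The latter were the C1q genes and ITGAM, which had r of -0.83 and a mean below the low-signal level. C1QA, C1QB and C1QC, the subunits of complement C1q made by tissue macrophages, had r of -0.09, 0.12 and -0.06 over all 12 arrays. Their r without late regressed arrays 2 and 3 was not computed, so these values do not show whether C1q followed the 8 genes on the other arrays. On mid-late arrays 1 to 4 the C1q mean was 7.54, 8.10, 9.59 and 8.83, the same order of arrays as for the mean of the 8 genes. The C1q mean was 9.46, 5.78, 8.50 and 8.62 on late regressed arrays 1 to 4 and 9.84, 9.68, 9.56 and 10.1 on late functional arrays. Late regressed array 2, with a mean of the 8 genes exceeded only by array 3, was thus the lowest of all 12 for C1q. That array also had the largest 3′ to 5′ difference, 2.52.

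Other leukocytes were checked by their own marker lists in late regressed against mid-late glands. Over all genes this comparison called 7.6% higher and 5.51% lower, and 35.8% had an unadjusted p below 0.05. Of 8 measured neutrophil genes 6 had means below the low-signal level, and limma called 1 higher, S100A8, by 2.40 (adjusted p = 0.0233) on late regressed values of 7.06, 7.80, 7.25 and 4.50. S100A9 and CAMP were not called, with late regressed array 2 and 3 values of 5.22 and 6.93 for S100A9 and of 5.37 and 6.13 for CAMP, and r of 0.71 and 0.65 with the mean of the 8 members. The other 5 genes of the list had means of 4.61 or less in every group. None of the 7 measured NK cell genes had a mean below the low-signal level, and the mean of that list lay between 7.60 and 8.27 on the 4 late regressed arrays and between 7.71 and 7.85 on the mid-late ones. For dendritic cells 7 of 9 genes, for B and plasma cells 6 of 8 and for mast cells 3 of 5 were below the low-signal level. limma called 0 of these 9, 8 and 5 genes, with 0, 2 and 0 at an unadjusted p below 0.05. GNLY, a granule protein of cytotoxic cells, was the 1 of 7 NK cell genes called higher, by 1.71, and CD6 the 1 of 7 T cell genes called, lower by 0.55 on the log2 scale (difference -0.55). Without late regressed arrays 2 and 3 none of GNLY, CD6 and S100A8 was called, with differences of 1.61, -0.43 and 1.53. Of 6 erythrocyte and platelet genes limma called 0, with 1 at an unadjusted p below 0.05.

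Marker genes of the other cells of the gland went in different directions between late regressed and mid-late glands. Of 8 luteal steroid cell genes, 3 were called lower in late regressed than in mid-late glands and 0 higher, HSD3B2 with -3.11, CYP19A1 with -3.09 and FDXR with -1.66, with a list median of -1.62. Without arrays 2 and 3 the median was -0.49 and 2 of the 8 were called lower, HSD3B2 with -3.05 and CYP19A1 with -1.82. Of 10 endothelial and 8 fibroblast genes 4 each were called higher and 0 lower, among them CLDN5 with 0.70, TEK with 0.89, FBLN1 with 1.74 and COL14A1 with 1.33. The list medians were 0.25 and 0.38. Only 8 of the 10 endothelial and 4 of the 8 fibroblast genes had a difference above 0. KDR with -0.83 and COL1A1 with -0.76 were among those below 0. Without arrays 2 and 3, 1 gene of each list was called. Of 6 smooth muscle and pericyte genes, MCAM alone was called, lower by 0.88 (difference -0.88). The list means of these cells do not split their own share from that of the leukocytes, and their part in the member values was not tested.

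Neighbours of the members on the chromosome, taken from RefSeq gene order alone, mostly did not follow them. LST1, a leukocyte gene near AIF1, had r of 0.91 with it over the 12 arrays and a difference of 1.14 that was not called. DRAM2, near CD53, had r of 0.93 with it and rose by 0.94 in late regressed glands (adjusted p = 0.0461, limma). CPSF6 beside LYZ, PRRC2A beside AIF1 and XK beside CYBB had late regressed minus mid-late differences of 0.34, 0.16 and -0.23, none of them called.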

How the data were processed

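The authors deposited 1 table of log2 values per probe set and array, made with RMA per the submitters' processing notes, with version and settings not given in the sources used here. RMA usually brings all arrays to a common distribution, which hides any shift in a cell's whole RNA content. That values are log2 was taken from their range. Of 52865 probe sets, 158 controls were left out. Of those tested, 24956 had 1 symbol in the platform annotation, 361 had several and 27390 had none. Of the symbols, 24629 were looked up in RefSeq and 0 changed. The probe set with the highest mean stood for a gene.

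Groups and array numbers came from the sample titles. Differences came from limma 3.58.1 under R 4.3.3 (functions lmFit and eBayes) on all 12 arrays as group means without covariates, adjusted by Benjamini-Hochberg over 52707 probe sets and called at an adjusted p below 0.05. The labels call the arrays biological replicates, and their number limits the precision. Scripts were tested on simulated data. The sources used here name no scan date or batch.

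Members and lists were chosen with earlier results of these data known. Named were all members, up to 3 called genes per list and further members as values, and the 10 genes most like the members. A few further genes, such as C1QA and chromosomal neighbours, were named after their values were seen. Alternatives were a fit of only the groups compared, a low-signal filter, median centring, renewed quantile normalization, a replicate block, weights per array, a covariate (3′ to 5′ difference or NC mean), a trended robust prior, removal of cross-hybridising probe set types, averaging all probe sets of a gene, and arrays left out. List counts without late regressed arrays 2 and 3, and macrophage counts with arrays left out, were added after seeing the data. A description of promoters was not run.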

Additional observations from a re-analysis of the deposited data

Results flagged for a closer look

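In 1 of 24 combinations of gene and group, a single array lay far from the others. AIF1 on late functional array 4 read 6.92, while the nearest late functional array read 7.61, and the gap was 0.875 of the range of the group. The limit for 4 samples was exceeded, which chance does in about 1 of 20 groups. That array was the lowest late functional one for 5 of the 8 genes, among them ADAMDEC1 at 4.07 and LYZ at 10.68.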

How the results depend on the processing

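The 4 arrays per group, the unknown RMA settings and low mid-late signal of ADAMDEC1, EVI2A and TLR1 limit these values. For late regressed against mid-late, the 3 called of the 8 became 6 with the low-signal filter, 6 with the replicate block, and 1 each with only the groups compared, array weights or the 3′ to 5′ covariate. It became 0 with the NC mean as a covariate and 0 without late regressed arrays 2 and 3 (limma), and 1 to 7 when 1 array was left out. For late functional against mid-late, the 1 called became 5 with only the groups compared, 3 with array weights, 4 without late regressed arrays 2 and 3, and 0 with the low-signal filter, the replicate block or the NC covariate. It was 0 to 2 when 1 array was left out. The whole table moved too: probe sets called in this comparison went from 470 to 2682, 3106 and 2417 in the settings with 5, 3 and 4 members, and to 72, 4 and 0 in those with 0 (limma). For late regressed against mid-late they went from 5282 to 4109 with the low-signal filter, 4349 with the replicate block and 975 without arrays 2 and 3. For late regressed against late functional it was 0 to 1 when 1 array was left out. The sample titles name no pairing of glands by replicate number. Same-numbered arrays had correlations of deviations from -0.122 to 0.296, and 5 of 12 arrays correlated best with their own number. These values do not settle whether the numbers pair the glands.

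The median difference of late regressed minus mid-late, 1.72, was -0.043 with the NC covariate, 0.82 without late regressed arrays 2 and 3, and 1.39 to 2.11 when 1 array was left out. That of late regressed minus late functional, 0.66, was -0.65 without these arrays and 0.19 to 1.01 when 1 array was left out. That of late functional minus mid-late, 1.43, was 0.24 with the NC covariate and 1.20 to 1.72 when 1 array was left out. The NC mean itself was 3.69 in mid-late, 3.55 in late regressed and 3.57 in late functional glands. Both late groups differed from mid-late glands (exact two-sided permutation p = 0.0286 each, 0.0429 adjusted over 3 comparisons). It also varied within groups, from 3.65 to 3.75 over the mid-late arrays. The part of background signal in the member values thus cannot be told apart from that of the group. The cause of the changes between settings was not tested. Of 191 member values per comparison, 176, 185 and 183 moved by less than 1 SD for late regressed minus mid-late, late regressed minus late functional and late functional minus mid-late, and 4, 10 and 3 turned sign.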
